A study of Mus musculus with 4 samples.

Results

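This account covers the genes of the integrin and laminin families in cultured mouse 4T1 cells, a mammary carcinoma line, with and without a knockdown of Ldha. Ldha encodes the A subunit of lactate dehydrogenase, which turns pyruvate into lactate at the end of glycolysis. Members were chosen by symbol, as genes that begin with Itga or Itgb or with Lama, Lamb or Lamc and a digit, leaving out genes of integrin-binding proteins. This gave 36 of 22180 genes measured, namely 26 integrin genes (17 alpha and 9 beta chains) and 10 laminin genes. The rule itself uses names and no measured value. Itga10 was not analysed here. One group of cells carried a short hairpin RNA of scrambled sequence (scramble) and the other a hairpin against Ldha (shLDHA). Knockdown cells were a mixture of those that survived puromycin (10 µg/ml). Whether the control cells went through this selection is not stated, so selection and knockdown cannot be told apart. All cells grew in vitro for 24 hours in RPMI medium, and 400 ng of their RNA went into labelling for a whole-transcript array, with 2 arrays per group. Replicates are not stated to be separate cultures, so the p-values reflect the spread over these 4 arrays, which may be technical only.

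Integrins are cell surface receptors made of 1 alpha and 1 beta chain that join the extracellular matrix to the actin or keratin skeleton. The alpha chain largely sets the ligand, and many alpha chains share the beta chain Itgb1. Laminins are secreted trimers of an alpha, a beta and a gamma chain that build the sheet of the basement membrane on which mammary epithelium rests. In mammary epithelium the integrins that bind laminin anchor cells to that sheet and carry signals for survival, and their levels are often altered in carcinoma.

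Levels are log2 values, so a difference of 1 is a doubling. The arrays of a group correlated at r = 0.997 across genes in both groups, and arrays of different groups at r = 0.993; genes are not independent replicates. Ldha itself read 6.69 and 6.96 in scramble and 6.31 and 6.15 in shLDHA. It was 1.51-fold lower (log2 change -0.59, SE 0.12, limma adjusted p = 0.0390), and the call was lost without scramble replicate 2 (0.128), shLDHA replicate 1 (0.0965) or shLDHA replicate 2 (0.163) and with the replicate number as a block (0.0734). All 10 mammary epithelial markers, among them Epcam, Cdh1 and Krt8, lay above the level under which 95% of 1089 olfactory receptor genes fell (4.16), which serves here as a mark of background. Only 2 of 13 leukocyte, 1 of 7 platelet, 2 of 10 fibroblast and 1 of 10 endothelial markers did. These were Nkg7, Fcer1g, Ppbp, Pdgfra, Acta2 and Flt1. Pdgfra read 6.53 and 6.50 in scramble and 6.38 and 6.61 in shLDHA, and Flt1 6.03 and 6.12 against 5.44 and 5.42. Among the markers below the mark were Ptprc, Pecam1, Cdh5 and Dcn.

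Of the 36 members, 18 lay above the background mark on average and 18 below it, and no member had arrays on both sides. The groups were compared with limma, a linear model fitted to all genes, with p adjusted by Benjamini and Hochberg's method and a threshold of 0.05. Over all genes 6.36% passed, 3.37% higher and 2.99% lower in shLDHA. Of the members, 2 were lower (Itga2 and Itgb7) and 1 was higher (Itgb4), which is 8.33% and close to the share over all genes. Of the 18 members above the background mark 16.7% passed, beside 11.9% of all genes above it, and 0 of the 18 below it passed. The median log2 change of the members was -0.0031, beside 0.0065 over all genes. At an unadjusted p under 0.05, 11 of the 36 members and 21.5% of all genes passed. The arrays of the groups did not overlap for 13 members that were higher and 12 that were lower in shLDHA. Over all genes these shares were 26.2% and 24.0%, or 50.3% together. Single genes of the family passed in both directions, though the call of Itgb4, the only higher one, did not hold in every alternative setting. The median was near 0. In RNA from whole cultures, fewer cells that express a gene and less RNA per cell cannot be told apart.

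**Figure D1:**
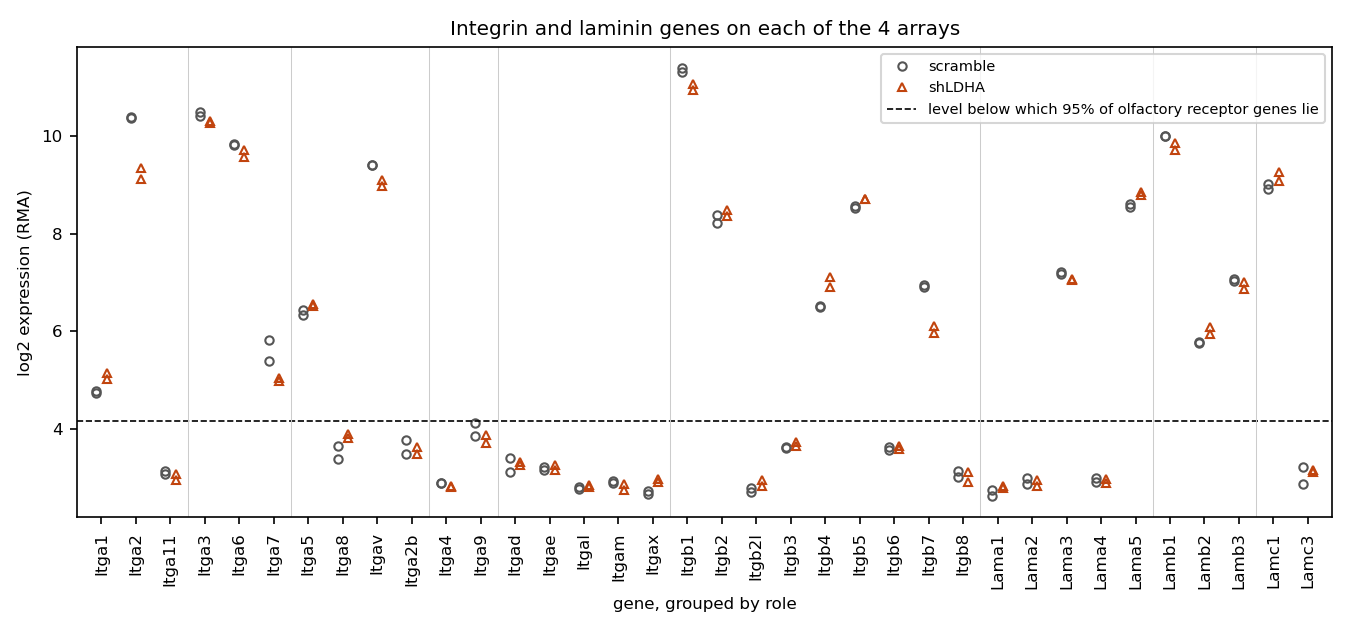
Log2 expression of each of the 36 integrin and laminin genes, grouped by role along the x axis, on the 2 scramble arrays (circles) and the 2 shLDHA arrays (triangles); the dashed line is the background mark at 4.16. The shLDHA arrays lie clearly lower for Itga2 and Itgb7 and higher for Itgb4, and 18 genes lie under the line on all 4 arrays.

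**Figure D2:**
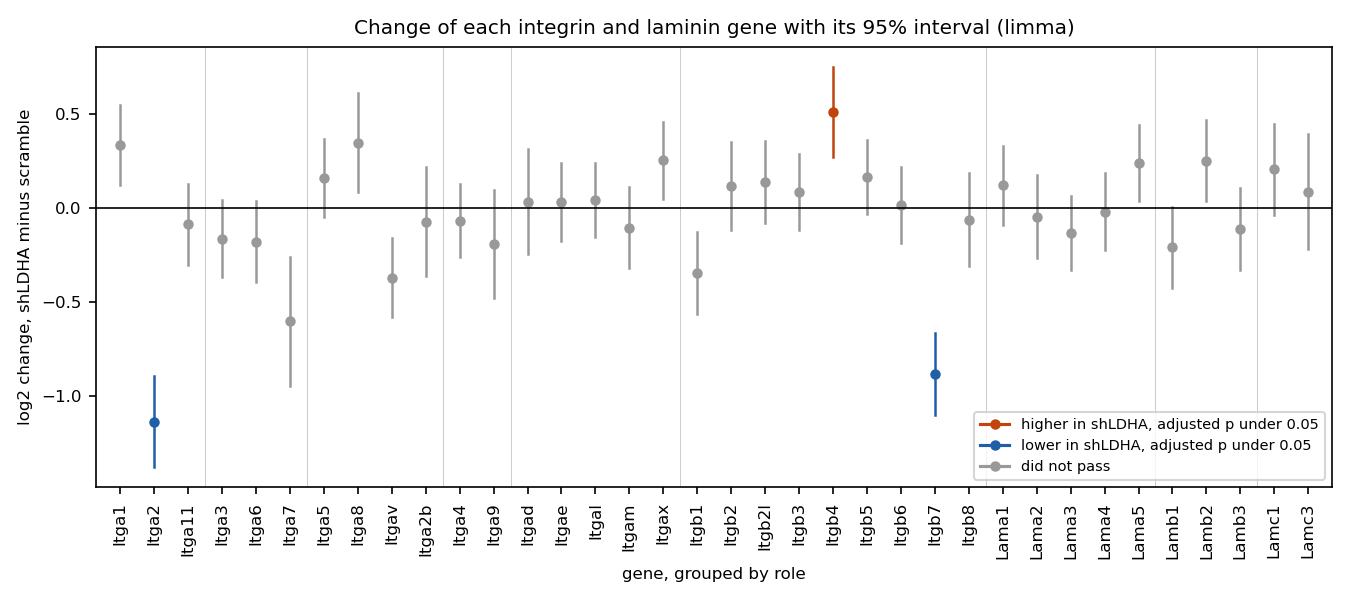
Log2 change of each gene, shLDHA minus scramble, as points with the 95% interval of the limma fit as bars. Itga2 (-1.14) and Itgb7 (-0.88) lie furthest below 0 and Itgb4 (0.51) furthest above, and the 10 laminin genes lie between -0.21 and 0.25.

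Itga2 had the largest change of the family. It encodes the alpha chain of a collagen receptor that pairs with Itgb1 and also binds laminin in epithelial cells. Itga2 read 10.37 and 10.38 in scramble and 9.34 and 9.12 in shLDHA. Both knockdown arrays lay about 1 log2 unit under both control arrays, and the groups did not overlap. This gave 10.37 ± 0.011 in scramble and 9.23 ± 0.15 in shLDHA (mean ± SD, n = 2 each), so Itga2 was 2.20-fold lower (log2 change -1.14, SE 0.10, limma adjusted p = 0.00293). It passed in 13 of 13 alternative settings, with a log2 change from -1.25 to -1.03.

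The other collagen-binding chains measured did not pass. Itga1, which pairs with Itgb1 and prefers the collagen of basement membranes, read 4.73 and 4.77 in scramble and 5.15 and 5.02 in shLDHA. Its log2 change of 0.33 (95% interval 0.12 to 0.55, limma adjusted p = 0.0845) points the other way from that of Itga2, although the groups did not overlap. Itga1 and Itga2 lie close together on chromosome 13, with 1 other gene between them in the order of the RefSeq table. Itga11, a collagen receptor chain of fibroblasts, lay under the background mark, between 2.95 and 3.13 on the 4 arrays, with a log2 change of -0.09.

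Itgb7 was the other member that fell. It encodes a beta chain known from lymphocytes that home to the gut, where it pairs with the chains encoded by Itga4 or Itgae. Itgb7 read 6.90 and 6.94 in scramble and 5.96 and 6.11 in shLDHA. The 2 knockdown arrays were below both controls by more than 0.7, several times the gap within a group. This gave 6.92 ± 0.032 in scramble and 6.04 ± 0.10 in shLDHA (mean ± SD, n = 2 each), so Itgb7 was 1.85-fold lower (log2 change -0.88, SE 0.09, limma adjusted p = 0.00473). It passed in 13 of 13 alternative settings, with an adjusted p of at most 0.0337. Both known partner genes lay under the background mark on all 4 arrays, Itga4 between 2.81 and 2.89 and Itgae between 3.15 and 3.26. Neither partner passed, with log2 changes of -0.07 and 0.03. The leukocyte markers had a mean level of 3.25 and 3.25 in scramble and 3.29 and 3.32 in shLDHA, and 0 of 13 passed.

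The promoters of the members that fell are shown so that the sequences around both start sites can be compared. Both come from RefSeq (build GRCm38.p6), which held a promoter for 23 of the 36 members, and run 5′ to 3′ from 250 bases before the start site to 50 after it. The Itga2 window is chr13:114932051-114932350 on the minus strand and the Itgb7 window chr15:102231886-102232185 on the minus strand. Capitals mark matches to any of 4 motifs searched on both strands, AP-1 (TGANTCA), the GC box (GGGCGG), the core of the hypoxia response element (ACGTG) and NF-kB.
Itga2: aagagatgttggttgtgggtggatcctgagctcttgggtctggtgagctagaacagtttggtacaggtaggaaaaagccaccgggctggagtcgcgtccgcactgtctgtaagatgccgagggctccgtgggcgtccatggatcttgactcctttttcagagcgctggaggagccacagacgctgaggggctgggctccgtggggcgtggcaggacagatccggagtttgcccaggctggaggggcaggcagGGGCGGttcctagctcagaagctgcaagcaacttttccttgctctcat
Itgb7: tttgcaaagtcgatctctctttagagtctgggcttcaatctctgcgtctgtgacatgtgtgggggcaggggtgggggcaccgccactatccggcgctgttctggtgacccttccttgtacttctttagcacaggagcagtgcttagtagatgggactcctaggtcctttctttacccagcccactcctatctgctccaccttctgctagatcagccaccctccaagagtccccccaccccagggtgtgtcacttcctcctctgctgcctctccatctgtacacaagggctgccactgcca
The Itga2 window held 1 match, a GC box at bases 253 to 258 of the window, and the Itgb7 window held 0. Of 32851 RefSeq promoter windows of this length, 35.7% held a GC box, 7.81% an AP-1 motif, 19.6% the hypoxia core and 8.46% an NF-kB motif. A match is a description of the letters, and its absence says nothing about the factors that act on a gene.

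The laminin-binding alpha chains read lower on both shLDHA arrays than on both scramble arrays, and 0 of 3 passed. The same held for 24.0% of all genes and for 3415 of the 10736 genes above the background mark. Itga3 encodes the chain of a laminin receptor that is abundant in epithelia and pairs with Itgb1. It read 10.42 and 10.49 in scramble and 10.31 and 10.27 in shLDHA, a log2 change of -0.16 (95% interval -0.37 to 0.04, limma adjusted p = 0.332). Itga6, whose product pairs with Itgb4 in hemidesmosomes or with Itgb1, read 9.81 and 9.83 against 9.71 and 9.57, a log2 change of -0.18 (-0.40 to 0.03, limma adjusted p = 0.312). These intervals hold no decrease as large as that of Itga2. Itga7, a laminin receptor chain best known from muscle, read 5.40 and 5.82 in scramble and 4.98 and 5.03 in shLDHA. Its log2 change of -0.60 (SE 0.14) was the third largest of the family, but the SD of the scramble arrays was 0.30 and the limma adjusted p was 0.0616. The gene passed in 4 of 13 alternative settings. Itga7 passed without scramble replicate 1 (adjusted p = 0.0160) and did not pass without scramble replicate 2 (0.157).

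Itgb4 was the member that rose. It encodes the beta chain that pairs with Itga6 alone and ties laminin to keratin filaments in hemidesmosomes. Itgb4 read 6.52 and 6.50 in scramble and 7.12 and 6.91 in shLDHA. Both knockdown arrays were above both controls, with a wider gap between the knockdown arrays than between the controls. This gave 6.51 ± 0.016 in scramble and 7.02 ± 0.15 in shLDHA (mean ± SD, n = 2 each), so Itgb4 was 1.42-fold higher (log2 change 0.51, SE 0.10, limma adjusted p = 0.0350). It passed in 8 of 13 alternative settings. Its call was lost without any 1 of the arrays, with an adjusted p of 0.102 and 0.114 without scramble replicate 1 and 2, and of 0.128 and 0.0632 without shLDHA replicate 1 and 2. With the replicate number as a block it was lost as well (0.0553). The log2 change stayed between 0.41 and 0.61.

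Itgb1, the beta chain shared by most integrins of epithelial cells, read 11.38 and 11.32 in scramble and 11.07 and 10.93 in shLDHA. The groups did not overlap, and the log2 change was -0.35 (95% interval -0.57 to -0.13, limma adjusted p = 0.0814). Itgb1 passed in 2 of 13 alternative settings. Itgb5, which pairs with Itgav in a vitronectin receptor, read 8.51 and 8.57 against 8.70 and 8.70, a log2 change of 0.16 (-0.04 to 0.36, limma adjusted p = 0.330). The remaining beta chains that pair with Itgav, Itgb3, Itgb6 and Itgb8, lay under the background mark between 2.91 and 3.74, and their log2 changes of 0.08, 0.015 and -0.06 did not pass.

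The alpha chains that recognise the RGD motif of fibronectin and vitronectin did not pass, in 0 of 4 genes. Itgav, the alpha chain of receptors for vitronectin and for latent TGF-beta, read 9.40 and 9.40 in scramble and 9.09 and 8.97 in shLDHA. The groups did not overlap, and the log2 change was -0.37 (95% interval -0.58 to -0.16, limma adjusted p = 0.0605). Itgav passed in 4 of 13 alternative settings, and a dim second probe set, between 3.06 and 3.28 on the 4 arrays, changed by -0.07. The mean of both probe sets gave -0.22 (limma adjusted p = 0.210). Itga5, the alpha chain of the main fibronectin receptor, read 6.33 and 6.43 against 6.56 and 6.51, a log2 change of 0.16 (-0.05 to 0.36, limma adjusted p = 0.372). Itga8, a chain found mostly in mesenchyme, and Itga2b, the platelet chain that pairs with Itgb3, lay under the background mark. Their log2 changes were 0.34 (limma adjusted p = 0.131) and -0.07 (0.794). Itga4 and Itga9, related chains that bind matrix and the adhesion molecule Vcam1, lay under the mark as well, with log2 changes of -0.07 and -0.19.

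**Figure D3:**
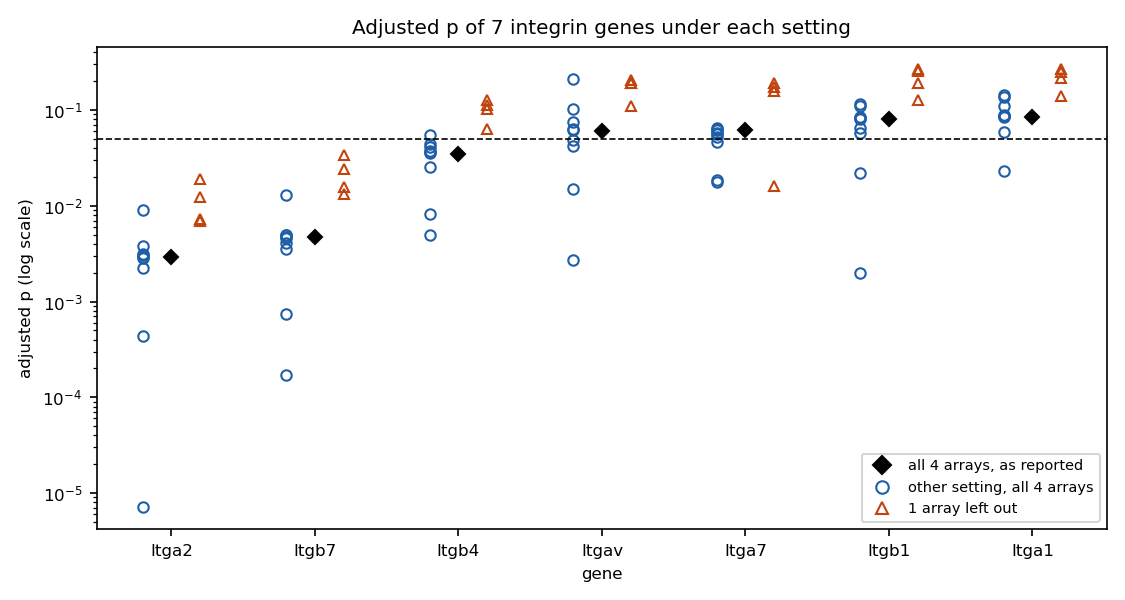
Adjusted p (log scale) of the 7 integrin genes with an adjusted p under 0.1, with the reported fit as a diamond, other settings on all 4 arrays as circles and fits with 1 array left out as triangles; the dashed line is the threshold of 0.05. Itga2 and Itgb7 stay under the line throughout, Itgb4 lies over it when any 1 array is left out and with the replicate block (0.0553), and Itgav, Itga7, Itgb1 and Itga1 lie on both sides.

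Of the integrin chains of leukocytes, the alpha chains were dim and Itgb2 was not. The alpha chain genes Itgal, Itgam, Itgax, Itgad and Itgae all lay under the background mark, between 2.66 and 3.41 on the 4 arrays, and 0 of 5 passed, with log2 changes from -0.11 to 0.25. Itgb2, the common beta partner of the first 4, was measured above that mark. Itgb2 read 8.22 and 8.38 in scramble and 8.35 and 8.48 in shLDHA. The groups overlapped, and the log2 change of 0.12 (95% interval -0.12 to 0.35, limma adjusted p = 0.574) did not pass. Of the 13 leukocyte markers, 2 lay above the mark. Nkg7 read 4.53 and 4.80 in scramble and 4.89 and 4.68 in shLDHA, and Fcer1g 4.63 and 4.59 against 4.45 and 4.67. Among those below it, Ptprc, the general leukocyte antigen, lay between 2.58 and 2.80 on the same arrays. Itgb2l, a paralog of Itgb2 found in myeloid cells, lay under the mark and changed by 0.14 (limma adjusted p = 0.461).

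None of the 10 laminin genes passed with limma at an adjusted p under 0.05, and 2 of them (Lama5 and Lamb2) had an unadjusted p under 0.05. Their log2 changes ran from -0.21 to 0.25, with a median of 0.03. Among the alpha chains, Lama5, the broadly expressed chain of mature basement membranes, read 8.54 and 8.61 in scramble and 8.84 and 8.79 in shLDHA. The groups did not overlap, and its log2 change was 0.24 (95% interval 0.04 to 0.44, limma adjusted p = 0.167). Lama3, the epithelial chain of the laminin that anchors hemidesmosomes, read 7.16 and 7.22 against 7.07 and 7.04, a log2 change of -0.13 (-0.33 to 0.06). Lama1, an embryonic chain, Lama2, a chain of muscle and nerve, and Lama4, a chain of vessels, lay under the background mark, between 2.62 and 2.99. Their log2 changes were 0.12, -0.05 and -0.02.

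All 3 laminin beta chains lay above the background mark. Lamb1, the common beta chain, read 10.00 and 10.00 in scramble and 9.86 and 9.72 in shLDHA, a log2 change of -0.21 (95% interval -0.43 to 0.0057, limma adjusted p = 0.245). Lamb2, known from kidney and the neuromuscular junction, read 5.77 and 5.77 against 5.95 and 6.09, a log2 change of 0.25 (0.04 to 0.46, limma adjusted p = 0.170). Lamb3, the partner of Lama3 in the epithelial laminin, read 7.03 and 7.06 against 6.86 and 7.01, a log2 change of -0.11 (-0.33 to 0.10). The gamma chain gene Lamc1, present in most laminins, read 8.91 and 9.02 against 9.26 and 9.07, a log2 change of 0.20 (-0.04 to 0.45, limma adjusted p = 0.315). Lamc3, a chain of some specialised basement membranes, lay between 2.87 and 3.23, under the mark, with a log2 change of 0.09. No interval of the 10 laminin genes reached a 2-fold change in either direction.

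Other genes of matrix adhesion were taken from lists chosen with earlier results of these data known, so their counts are descriptions. Beside them, 6.36% of all genes and 11.9% of the 10736 genes above the background mark passed. Of 19 basement membrane genes, the matrix partners of laminins, 1 rose and 1 fell, with a median log2 change of -0.02. Ntn4, a laminin-related protein that disturbs laminin networks, rose from 3.13 and 3.04 to 3.73 and 3.62 (log2 change 0.59, limma adjusted p = 0.0161), with all 4 values under the background mark. Col4a2, a chain of the collagen network of basement membranes, fell by 0.39 on the log2 scale (limma adjusted p = 0.0464). Hspg2, the proteoglycan perlecan (-0.07), and Agrn, the proteoglycan agrin (-0.14), did not pass. Without scramble replicate 1 the call of Ntn4 was kept and that of Col4a2 was lost, and without any other array both were lost.

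A list of 9 genes covered hemidesmosomes, laminin receptors other than integrins and the hyaluronan receptor Cd44. Of these 9 genes, 2 rose and 1 fell, with a median log2 change of -0.04. Plec, the plakin that links Itgb4 to keratin, read 6.18 and 6.24 in scramble and 6.96 and 6.77 in shLDHA. This was 1.57-fold higher (log2 change 0.65, SE 0.10, limma adjusted p = 0.0159). Both Plec and Itgb4 were higher on both knockdown arrays, while the plakin gene Dst (-0.32, limma adjusted p = 0.0893) and Col17a1 (-0.34, 0.0659), a hemidesmosomal collagen under the background mark on all 4 arrays, read lower and did not pass. Dag1, the laminin receptor dystroglycan, rose by 0.42 (limma adjusted p = 0.0428), and Cd44, a hyaluronan receptor, fell by 0.51 on the log2 scale (limma adjusted p = 0.0185). Rpsa, the brightest gene of this list, changed by 0.05 (limma adjusted p = 0.811) and did not pass. Plec kept its call without scramble replicate 2 and without shLDHA replicate 2 and lost it without scramble replicate 1 and without shLDHA replicate 1. Dag1 and Cd44 lost theirs without any 1 array.

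Of 25 genes of focal adhesions, the sites where integrins meet actin, 1 rose and 5 fell, with a median log2 change of -0.03. The list also named Ptk2, Ilk and Lims2, which were not among the genes tested. Tns4, an adaptor that binds the tails of integrin beta chains, fell by 0.65 on the log2 scale (SE 0.09, limma adjusted p = 0.0109), from 10.55 and 10.64 to 9.98 and 9.90. The kinase gene Src (-0.58), the adaptor genes Zyx (-0.54) and Bcar1 (-0.53) and the actin regulator gene Vasp (-0.44) also fell, with limma adjusted p from 0.0159 to 0.0392. Vcl, which links talin to actin, rose by 0.41 with a limma adjusted p just under the threshold, and passed in 5 of 13 alternative settings. Of these 6 genes, Tns4 alone kept its call without scramble replicate 1 and without scramble replicate 2, and 0 kept it without shLDHA replicate 1 or without shLDHA replicate 2. The actin crosslinker genes Actn1 (-0.11) and Flna (-0.15) did not pass.

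Of 19 genes of integrin ligands, 3 rose and 2 fell, and the median log2 change was -0.02. Spp1, also on the list, was not among the genes tested. Ccn1, a matrix protein bound by integrins that contain Itgav, read 10.61 and 10.61 in scramble and 9.11 and 9.25 in shLDHA, which was 2.69-fold lower (limma adjusted p = 0.000962). Tnc, the matrix protein tenascin C, was 2.24-fold lower, at 5.65 and 5.71 against 4.55 and 4.49 (limma adjusted p = 0.00157). Thbs1, the matrix protein thrombospondin 1, rose 2.36-fold, from 8.06 and 8.16 to 9.37 and 9.32 (limma adjusted p = 0.00141). Postn, another matrix protein bound by integrins, rose from 2.64 and 2.44 to 4.22 and 4.14 (limma adjusted p = 0.000962), and as both scramble values and that of shLDHA replicate 2 lay under the background mark, no fold is given. These 4 genes kept their call without each array in turn, while Tgfb3, a ligand released from its latent complex by integrins with Itgav, rose by 0.47 (limma adjusted p = 0.0400) and lost its call without any 1 array. Fn1, the gene of fibronectin, changed by -0.29 (limma adjusted p = 0.119).

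**Figure D4:**
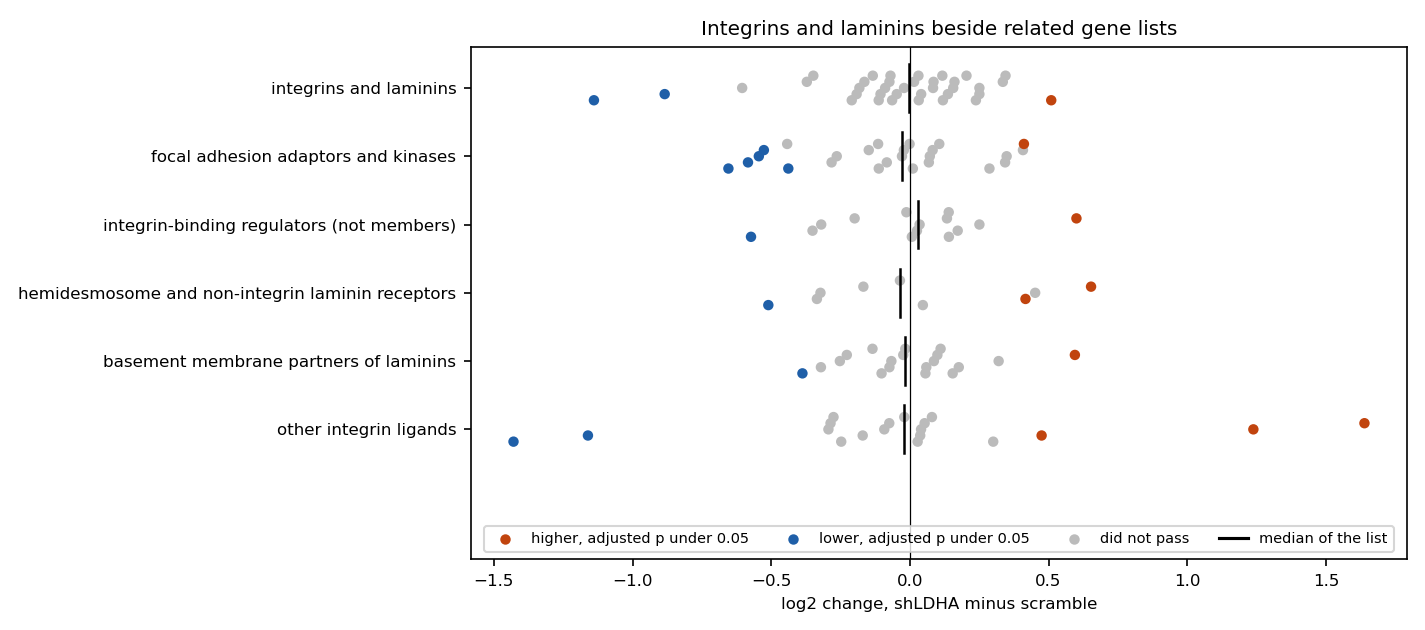
Log2 change, shLDHA minus scramble, of the 36 members and of 5 related gene lists, 1 point per gene, with the median of each list as a black bar. The medians all lie near 0, and among the ligands Ccn1 lies at -1.43 and Postn at 1.64, the latter from 3 of 4 values under the background mark.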

How the data were processed

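Per the submitters' processing notes, RMA and R 3.4.0 gave the log2 values that the authors deposited; which annotation RMA used was not found in the sources used here, and 0 value columns were left out. RMA compresses signals near the floor, so folds of dim genes may be understated. Of 41345 probe sets, 23521 had 1 symbol in a platform annotation, 1814 several and 16010 none. The first kind was used, which left out 2 probe sets that list a member beside another gene. The brightest probe set per gene was kept, with no filter on dim genes.

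Groups and replicate numbers came from sample titles. limma 3.58.1 (lmFit, eBayes; R 4.3.3) was fitted to 22180 genes on 4 arrays with no covariate, two-sided, with 2 residual and 4.52 prior degrees of freedom. Adjusted p-values are over all genes, and SDs over 2 arrays. Sequencing depth has no meaning for arrays; their small number limits the precision. The code was tested on simulated data of 22180 genes with 200 changed, in 10 runs. It recovered 9.54%, 89.1% and 99.2% of genes changed by 0.5, 1 and 2 on the log2 scale. The right sign was required only for changes of 0.5, and 4.44% of the calls were false on average. In the data 1410 genes passed, more than were changed in the simulation, so these shares need not hold for the data.

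Every member could be named, and from each of 5 related lists up to 6 genes past the threshold by p and the brightest others. Dst, Col17a1 and single markers were chosen after their values were seen. The members and lists were chosen with earlier results of these data known. The 13 alternative settings were the replicate block, dim-gene filters at the median and the 25th percentile, repeated quantile normalization, median centring, the mean of probe sets, every probe set, eBayes with trend or robust, and each array left out; a threshold of 0.1 was tried too. Figures used matplotlib 3.10.9.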

Additional observations from a re-analysis of the deposited data

How the results depend on the processing

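Itga2 and Itgb7 passed in every one of the 13 settings, and 21 of the 36 members kept their sign and their side of the threshold in all settings in which they were tested. With the median filter, 2836 of 11090 genes (25.6%) and 7 of 18 members (38.9%) passed, the added ones being Itga1, Itga7, Itgav and Itgb1. With the trend, 2806 genes (12.7%) and 8 members (22.2%) passed, the added ones being Itga7, Itgav, Itgb1, Lama5 and Lamb1. With the filter at the 25th percentile 1767 of 16635 genes (10.6%) and 5 of 28 members (17.9%) passed, and at a threshold of 0.1 it was 2391 genes and 7 members. With the replicate number as a block, 838 genes passed and 2 members, Itga2 and Itgb7, with Itgb4 at an adjusted p of 0.0553. The labels do not say that the numbers pair the cultures, and deviations of arrays of the same number correlated at r = -0.027. Leaving out 1 array gave 370 to 636 genes and 2 to 3 members; such fits have fewer residual degrees of freedom. Other causes were not tested. Sign changes were seen only among uncalled genes: with median centring, Itgad (-0.0013), Itgae (-0.0023), Itgb6 (-0.018), Cd63 (-0.0077) and Slc3a2 (-0.026); with repeated quantile normalization, Itgb6 (-0.0033); with the mean of probe sets, Cdh1 (-0.028). Without 1 array, log2 changes also crossed 0 for Itga2b (-0.22 to 0.071), Itgad (-0.12 to 0.18), Itgae (-0.017 to 0.079), Itgb6 (-0.015 to 0.045), Itgb8 (-0.17 to 0.039), Lama2 (-0.11 to 0.010), Lama4 (-0.061 to 0.019), Lamc3 (-0.094 to 0.26), Cd63 (-0.055 to 0.11) and Slc3a2 (-0.024 to 0.038). Dim members have folds that may be understated.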

Other observations

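Proteins that sit beside integrins in the membrane or bind their tails were measured as well. Of 14 such genes, 1 rose and 1 fell, which is 14.3%, beside 6.36% of all genes and 11.9% of those above the background mark. Their median log2 change was 0.03. Cd81, a tetraspanin that associates with integrins, rose from 10.56 and 10.47 to 11.07 and 11.16, 1.52-fold higher (limma adjusted p = 0.0159). Plaur, the urokinase receptor that binds integrins at the cell surface, fell from 9.15 and 9.08 to 8.51 and 8.57, 1.49-fold lower (limma adjusted p = 0.0159). Cd81 kept its call without scramble replicate 1 and Plaur without scramble replicate 2, and both lost it without shLDHA replicate 1 and without shLDHA replicate 2. The tetraspanin gene Cd63 (0.03) and Slc3a2 (0.0069), a transporter chain that binds integrin beta tails, did not pass.

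Among 10 endothelial markers Flt1, the gene of a VEGF receptor, was lower in shLDHA (log2 change -0.65, limma adjusted p = 0.0108) and 9 did not pass. Its call was lost without shLDHA replicate 1 and without shLDHA replicate 2. Of the 10 mammary epithelial markers, Epcam and Krt8 rose, by 0.53 and 0.47, and the claudin genes Cldn3 and Cldn7 fell, with log2 changes of -0.97 and -1.06. So 40% of these markers passed, beside 6.36% of all genes and 11.9% of those above the background mark. Epcam and Krt8 lost their calls without any 1 array.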
